A study of Mus musculus with 20 samples.

Results

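Box C/D small nucleolar RNAs (snoRNAs) were followed through 20 RNA-seq libraries of SIMS cells, a mouse salivary gland line. The genes described here are those whose GENCODE M21 symbol starts with Snord and that had at least 20 counts summed over the 20 libraries. Among all 55471 genes listed, 99 carried such a symbol and 40 met the count rule. The genes were thus chosen by their summed counts, and 12 of the 20 libraries are Zcchc8 knockouts, so the rule admitted a gene more readily when it was high there: 7 of the 40 had fewer than 20 counts outside the Zcchc8 knockout libraries. The gene just inside the rule was Snord42b, with 25 counts. Just outside were Snord23 with 16, Snord55 with 8, Snord111 with 5 and Snord67 with 3 counts, and the other 55 Snord genes had no count.

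Each of 5 groups held 4 libraries of total RNA: unedited wild-type cells, a Btbd7 knockout (KO) made with Cas9 as the negative control, and Zcchc8 KO clones 1, 2 and 3, each a single edited line. All were grown in the same serum-containing medium. The labels do not say whether the 4 libraries of a group came from separate cultures, so the p-values measure the spread between these libraries, which may be technical. ZCCHC8 holds together nuclear exosome targeting (NEXT), a complex of the nucleus, and the series asked which transcripts change in its absence.

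Box C/D snoRNAs are short nucleolar RNAs that bind fibrillarin, NOP56, NOP58 and SNU13 through a C box near the 5′ end and a D box near the 3′ end, and most guide the 2′-O-methylation of ribosomal RNA. Most in mammals lie in introns of a host gene and are released when the host intron is spliced out, debranched and trimmed from both ends by exonucleases. A few, among them U8 (Snord118) and U13 (Snord13), are transcribed from promoters of their own and act in ribosomal RNA maturation. The NEXT complex hands short nuclear transcripts and RNA 3′ ends to the RNA exosome.

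The annotation placed 37 of the 40 genes inside a gene on the same strand, called the host here, and these fell into 28 hosts. The hosts of 30 genes were protein-coding, 12 of these being ribosomal protein genes, and 7 genes had a noncoding host. Snord118, Snord13 and Snord104 lay in no annotated gene on their strand. The genes were 64 to 238 bases long, with a median of 79.5. The letters TGATGA, the C box, were found in the first 20 bases of 23 of the 40 and in 0.699% of all 141704 annotated transcripts. The letters CTGA, the D box, were found in the last 20 bases of 39 of the 40 and in 9.24% of all transcripts. Only the strand of the transcript was searched, and the motifs do not overlap.

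The sequences below are those of the GENCODE M21 transcripts, 5′ to 3′ on the gene's own strand, with these C and D boxes in capitals. The first set holds Snord118 and Snord104, genes without a host, which the annotation gives as genes of their own.

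Snord118: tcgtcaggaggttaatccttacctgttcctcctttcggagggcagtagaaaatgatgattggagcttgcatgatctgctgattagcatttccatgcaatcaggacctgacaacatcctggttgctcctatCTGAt
Snord104: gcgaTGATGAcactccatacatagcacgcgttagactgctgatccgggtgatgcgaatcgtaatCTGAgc

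Snord118 (ENSMUSG00000064899.1) lies at chr11:69073427-69073561 on the plus strand of GRCm38 and Snord104 (ENSMUSG00000065126.1) at chr11:106500993-106501062 on the plus strand. Snord118 does not have the exact C box letters in the window searched.

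The second set holds genes of introns, among those that rose most in the Zcchc8 KO clones, with their host neighbours Snord70 and Snord53 and the abundantly counted Snord15a, whose rise or fall did not pass the test.

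Snord11: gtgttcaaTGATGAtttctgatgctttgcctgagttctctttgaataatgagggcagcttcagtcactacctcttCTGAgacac
Snord70: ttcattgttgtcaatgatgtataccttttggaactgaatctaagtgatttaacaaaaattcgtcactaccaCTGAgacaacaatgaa
Snord73a: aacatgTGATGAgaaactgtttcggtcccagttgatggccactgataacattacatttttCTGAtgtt
Snord83b: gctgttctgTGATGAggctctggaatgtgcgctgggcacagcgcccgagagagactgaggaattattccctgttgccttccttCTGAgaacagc
Snord92: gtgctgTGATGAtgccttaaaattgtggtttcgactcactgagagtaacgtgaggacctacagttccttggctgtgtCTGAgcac
Snord53: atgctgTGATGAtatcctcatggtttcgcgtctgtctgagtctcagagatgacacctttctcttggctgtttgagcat
Snord93: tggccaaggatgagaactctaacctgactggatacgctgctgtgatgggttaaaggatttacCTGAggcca
Snord15a: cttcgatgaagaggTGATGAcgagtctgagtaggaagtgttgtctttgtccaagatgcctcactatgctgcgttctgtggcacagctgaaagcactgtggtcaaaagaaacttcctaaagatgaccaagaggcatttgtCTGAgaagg

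Snord11 (ENSMUSG00000089093.3, chr1:59704790-59704873) and Snord70 (ENSMUSG00000077345.1, chr1:59691934-59692020) lie on the plus strand in introns of Nop58, which encodes a core box C/D protein. Snord73a (ENSMUSG00000064984.1, chr3:86138791-86138858, minus strand) lies in the ribosomal protein gene Rps3a1. Snord83b (ENSMUSG00000077734.1, chr15:80078498-80078591, minus strand) lies in Rpl3. Snord92 (ENSMUSG00000093289.1, chr17:71631281-71631365) and Snord53 (ENSMUSG00000092887.1, chr17:71640879-71640956) share the host Wdr43, a gene for ribosome assembly, on the plus strand. Snord93 (ENSMUSG00000095205.1, chr5:23852210-23852280, plus strand) lies in the noncoding gene 2700038G22Rik. Snord15a (ENSMUSG00000065822.1, chr7:99482785-99482932, minus strand) lies in Rps3. Snord53 was the 1 gene of the 40 without CTGA in the window. Of the 14 genes that rose (below), 7 had the exact TGATGA.

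A library held 6833258 to 17771804 gene counts, with clone 1 shallow throughout at 6833258 to 7683444. The 40 genes together had 46884 counts, of which Snord118 and Snord17 took 49.6%. These are reads of a library made for longer RNA, and reads of a mature snoRNA cannot be told apart from those of a longer RNA that spans it. Fewer cells that hold an RNA and less of it per cell cannot be told apart either. Wild-type replicate 1 stood apart, with 14245 genes detected where the remaining wild-type libraries had 17442 to 18791. Among the 4 wild-type libraries it was the highest for 18 of the 30 tested snoRNA genes, by over 2-fold for 8 of them, and the lowest for 12 of their 20 hosts. The label check by RNA level was partial: Btbd7 fell in its own knockout (log2 fold change -1.03) and Zcchc8 fell by 0.62 on the log2 scale over the 3 clones, but by 1.48 in clone 2, 0.26 in clone 3 and 0.11 in clone 1. The other NEXT subunit genes, Rbm7 and Mtrex, were at -0.20 and -0.27 over the clones. Of the 8 epithelial markers 7 reached a median of 1 CPM, that is, counts scaled to library size, and the 8 summed to 2867 to 4961 CPM. The exception, Krt5, averaged at most 0.341 CPM in a group. Of the 3 endothelial markers 0 reached that median, and they summed to at most 1.15 CPM. It was reached by 2 of the 4 acinar genes and by 1 each of the 5 fibroblast, 3 blood and 3 neural markers. The 5 fibroblast markers, mostly Col1a1, summed to 11.4 to 18.5 CPM in wild type, 22.5 to 35.2 in Btbd7 KO, 10.2 to 14.2 in clone 1, 24.4 to 28.2 in clone 2 and 22.2 to 26.3 in clone 3. The 3 blood markers, mostly Cd68, summed to 4.52 to 6.19 CPM in wild type, 5.44 to 6.70 in Btbd7 KO, 8.07 to 13.0 in clone 1, 9.33 to 11 in clone 2 and 4.09 to 6.63 in clone 3. Their part in the results was not tested.

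Box C/D snoRNA genes rose in the Zcchc8 KO clones more often than they fell. Of the 30 genes with enough counts for the test, 14 were higher and 1 was lower in the mean of the 3 clones than in wild type (edgeR's quasi-likelihood test, with p adjusted by Benjamini and Hochberg's method over all 15297 genes tested and called under 0.05). Of all genes tested, 16.2% were called higher and 19.9% lower. The median log2 fold change of the 30 was 0.63, against -0.01 over all genes. Without Snord73a and Snord92, the tested genes that had fewer than 20 counts outside the Zcchc8 KO libraries, 12 of 28 were higher, a count made after the data were seen, as is the one for ratios below. The filter for the test asked for enough counts in as many libraries as a group holds, which the clone libraries could meet alone. Snord85, at no more than 0.663 CPM (scaled by TMM factors) in any control library, was among the genes kept. Both counts are thus not free of selection through the clones. Summed over the 40 genes, a wild-type library held 111 to 147 CPM (here over the raw gene counts), a Btbd7 KO library 105 to 125, a clone 1 library 337 to 393, a clone 2 library 195 to 239 and a clone 3 library 234 to 266. These sums did not overlap between the controls and the clones, but they use the same counts that chose the genes. Snord118 and Snord17, which both rose in the clones, took 49.6% of the counts of the 40 genes. The sums of the other genes are not given here, so the separation is not shown for them.

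In the single clones, 14 genes were higher and 0 lower in clone 1 (16.7% and 19.1% of all genes), 13 higher and 2, Snord87 and Snord58b, lower in clone 2 (16.1% and 16.2%), and 12 higher and 0 lower in clone 3 (14% and 15.3%). With only the groups compared in the fit, clone 2 had 8 higher and 0 lower (9.61% and 9.73% of all genes). Both of its lower calls ended without wild-type replicate 1 or clone 2 replicate 4, and 1 of them without clone 2 replicate 1 or 3. In the mean of the clones minus Btbd7 KO, which shares the clone libraries with the main comparison, 13 were higher and 0 lower, with 18.8% and 22.2% of all genes called (edgeR; 0 were lower at an unadjusted p under 0.05 and 0 by DESeq2). The genes called higher for the mean and in every clone numbered 12, as did 7.64% of all genes, and 0 were lower throughout, against 5.82%. At an unadjusted p under 0.05, 1 gene was lower in clone 1 and 2 in clone 3, and DESeq2 called 0 and 1. In Btbd7 KO 1 gene (Snord104) was higher and 1 (Snord15a) lower than in wild type, with 7.73% and 8% of all genes called. All 12 Zcchc8 KO libraries lay above all 4 wild-type libraries for 8 of the 30 genes, as for 6.01% of all genes tested, and below them for 0, as for 4.12%: Snord118, Snord13, Snord11, Snord83b, Snord85, Snord73a, Snord93 and Snord92. Without Snord85 and Snord93 they also lay above all Btbd7 KO libraries, as for 4.62% of all genes, and 0 lay below both control groups, against 2.39%. Snord73a and Snord92, counted in both sets, met the count rule only through the Zcchc8 KO libraries.

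Without wild-type replicate 1, 17 of 31 genes were higher and 0 lower, against 17.5% and 18.7% of all genes. The additional calls were Snord34, Snord4a and Snord65. Snord65 was at 3.64 CPM in wild-type replicate 1 and at 0.521, 0.598 and 0.352 in replicates 2 to 4, and Snord4a at 2.28 against 0.231, 0 and 0.235. For both genes wild-type replicate 1 lay above all 12 Zcchc8 KO libraries, and the other 3 wild-type libraries lay below most of them.

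Among the genes without a host, Snord118 encodes U8, which large-subunit ribosomal RNA needs for its maturation. It was at 28.5, 21.7, 20.4 and 16.0 CPM (here and below scaled by TMM factors) in wild type and at 16.3, 21.8, 24.1 and 25.8 in Btbd7 KO. In clone 1 it was at 147, 146, 122 and 126, in clone 2 at 59.1, 61.4, 61.7 and 64.6, and in clone 3 at 77.4, 81.7, 89.7 and 89.9. The control groups overlapped, every Zcchc8 KO library lay above both, and the 3 clones did not overlap each other, with clone 1 highest. The log2 fold change over the clones was 2.04 (SE 0.12, adjusted p = 8.02e-13 by edgeR), and in Btbd7 KO it was 0.01. The gene has a near copy, Gm24208, that shares at least 1 stretch of 50 bases, so reads could have been split between them.

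Snord13, the gene of U13, which acts on small-subunit ribosomal RNA, showed the same order of groups. It was at 4.10, 3.41, 3.66 and 3.81 CPM in wild type and 3.38, 2.32, 4.22 and 5.66 in Btbd7 KO. Clone 1 was at 25.8, 27.5, 22.6 and 21.3, clone 2 at 8.36, 14.0, 9.47 and 16.9, and clone 3 at 16.7, 17.6, 17.5 and 16.2. The lowest Zcchc8 KO library, in clone 2, was above the highest control library (log2 fold change 2.19, SE 0.19, adjusted p = 2.37e-09 by edgeR).

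Snord104 differed from the other genes without a host in that it was also higher in the negative control. It was at 4.49, 6.13, 7.85 and 6.33 CPM in wild type, and at 10.4, 11.2, 9.93 and 8.70 in Btbd7 KO. In the clones the values ran from 6.17 to 12.3. The Btbd7 KO libraries did not overlap wild type (log2 fold change 0.70, adjusted p = 0.00899 by edgeR, and 0.0504 with only the groups compared), whereas the Zcchc8 KO libraries did (0.57, SE 0.16, adjusted p = 0.00555).

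**Figure D1:**
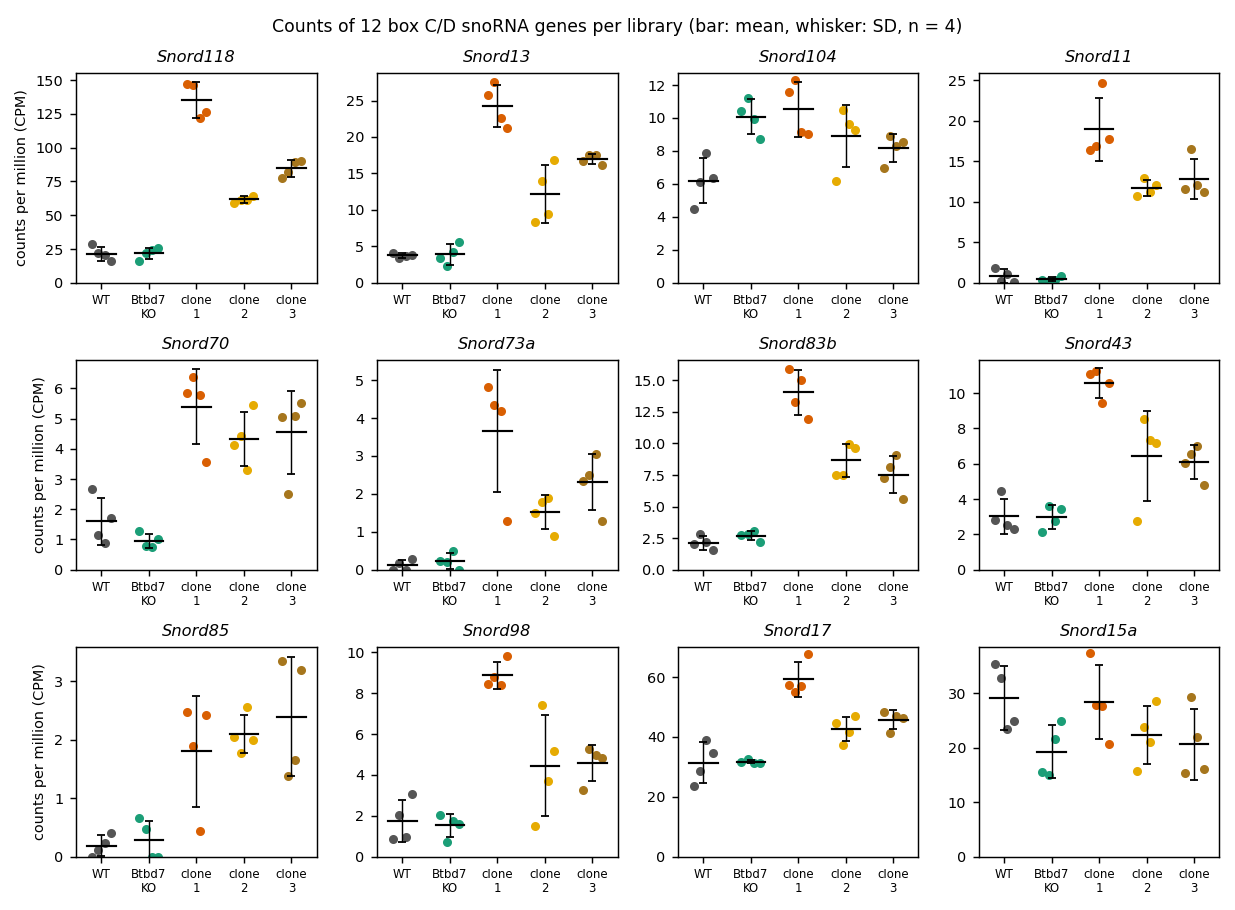
CPM (y axis, from 0) of 12 box C/D snoRNA genes in each library of wild type, Btbd7 KO and Zcchc8 KO clones 1 to 3; points are libraries, bars the group mean and whiskers the SD (n = 4). Snord118, Snord13, Snord11, Snord73a and Snord83b lie above both control groups in every clone library, whereas Snord104 is also high in Btbd7 KO and Snord15a overlaps between all groups.

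The genes with the largest log2 fold changes lay in introns, and their control levels were low. Snord11 was at 1.89, 0.231, 1.12 and 0.0586 CPM in wild type (29, 4, 15 and 1 counts) and at 0.301, 0.265, 0.372 and 0.845 in Btbd7 KO. It was at 16.4, 16.9, 24.6 and 17.7 CPM in clone 1, at 10.7, 12.9, 11.2 and 12 in clone 2 and at 11.5, 16.4, 12.1 and 11.2 in clone 3. No Zcchc8 KO library came near a control library (log2 fold change 4.14, SE 0.37, adjusted p = 3.35e-09 by edgeR). Wild-type replicate 1 decided part of the size, which was 5.04 without it.

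Its host Nop58 went the other way. Wild type averaged 130 ± 28.1 CPM of Nop58 (SD, n = 4), Btbd7 KO 142 ± 6.06 (SD, n = 4), and clones 1, 2 and 3 113 ± 5.42, 99.1 ± 3.86 and 107 ± 7.11 (SD, n = 4 each). The log2 fold change was -0.29 (SE 0.08, adjusted p = 0.00599 by edgeR), and wild-type replicate 1, at 91.0 CPM, was below all Zcchc8 KO libraries. Snord70, in another intron of Nop58, rose by less than Snord11. It was at 2.67, 1.16, 0.897 and 1.70 CPM in wild type, 1.27, 0.796, 0.744 and 1.01 in Btbd7 KO, 5.86, 6.36, 5.79 and 3.57 in clone 1, 4.11, 4.42, 3.31 and 5.46 in clone 2 and 5.05, 2.51, 5.10 and 5.52 in clone 3. The clones overlapped wild type in a single library, clone 3 replicate 2 (log2 fold change 1.55, SE 0.29, adjusted p = 1.4e-04 by edgeR). The difference between the neighbours was not tested.

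Snord73a was listed at 0, 3, 0 and 5 counts in wild type and at 4, 3, 4 and 0 in Btbd7 KO. In the clones it was at 4.82, 4.33, 4.20 and 1.27 CPM (clone 1), 1.51, 1.78, 1.88 and 0.898 (clone 2) and 2.35, 2.51, 3.06 and 1.29 (clone 3), all above the highest control value of 0.496. The fit gave 4.12 on the log2 scale (SE 0.67, adjusted p = 2.64e-05 by edgeR), and 4.99 without wild-type replicate 4. Snord73a met the count rule only through the Zcchc8 KO libraries, so its p-value is not free of that choice. Its host Rps3a1 averaged 379 ± 79.7 CPM over wild type (SD, n = 4) against 313 ± 29.2 over the clones (SD, n = 12) (log2 fold change -0.28, adjusted p = 0.0117 by edgeR).

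Snord85 had 0, 2, 3 and 7 counts in wild type and 11, 7, 0 and 0 in Btbd7 KO. It was at 2.47, 1.90, 0.434 and 2.42 CPM in clone 1, 2.06, 1.78, 2.57 and 2.00 in clone 2 and 3.35, 1.38, 1.66 and 3.20 in clone 3. The lowest of these, clone 1 replicate 3 with 3 counts, was above the highest wild-type value of 0.410 and below the highest Btbd7 KO value of 0.663. The log2 fold change was 3.41 (SE 0.68, adjusted p = 3.25e-04 by edgeR), and 4.16 without wild-type replicate 4.

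Rpl3, a ribosomal protein gene, holds Snord83b and Snord43, and both rose. Snord83b was at 2.02, 2.84, 2.17 and 1.52 CPM in wild type, 2.71, 2.79, 3.10 and 2.20 in Btbd7 KO, 15.9, 13.3, 15.1 and 12 in clone 1, 7.54, 7.48, 9.92 and 9.67 in clone 2 and 7.26, 8.16, 9.05 and 5.59 in clone 3. No Zcchc8 KO library reached down to a control library (log2 fold change 2.17, SE 0.19, adjusted p = 2.54e-09 by edgeR). Snord43, a gene the annotation classes as a miRNA, was at 2.29 to 4.46 CPM in wild type, 2.11 to 3.58 in Btbd7 KO and 2.74 to 11.2 in the clones, where only clone 2 replicate 1 overlapped the controls (log2 fold change 1.30, SE 0.24, adjusted p = 1.02e-04 by edgeR). Rpl3 itself averaged 253 ± 29.8 CPM over wild type (SD, n = 4) against 232 ± 15.3 over the clones (SD, n = 12) (log2 fold change -0.12, adjusted p = 0.11 by edgeR).

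Wdr43 holds 1 gene that rose and 1 that did not pass the test. Snord92 had 0, 0, 3 and 3 counts in wild type and 1, 1, 0 and 0 in Btbd7 KO, and 3 to 13 counts in the 12 clone libraries, of which the lowest level was 0.411 CPM and the highest wild-type level 0.224. Its log2 fold change was 2.87 (SE 0.68, adjusted p = 0.00174 by edgeR), and 3.48 without wild-type replicate 3. Snord92 too met the count rule only through the Zcchc8 KO libraries, and its p-value is not free of that choice. Snord53 was at 0.224 to 1.37 CPM in wild type and 0.126 to 2.17 in the clones, with a log2 fold change of 0.15 (SE 0.53, adjusted p = 0.862 by edgeR). Wdr43 fell from 136 ± 6.91 CPM (SD, n = 4) to 101 ± 12.2 (SD, n = 12), a change of -0.44 (adjusted p = 4.31e-07 by edgeR).

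Snord93 had 0, 3, 5 and 5 counts in wild type and 13, 1, 6 and 3 in Btbd7 KO, against 5 to 32 counts in the clone libraries. The clones did not overlap wild type but overlapped Btbd7 KO (log2 fold change 2.79, SE 0.62, adjusted p = 9e-04 by edgeR). Its host 2700038G22Rik was the 1 host that rose (0.34, SE 0.12, adjusted p = 0.0253 by edgeR). Snord98, in Ccar1, was at 0.845 to 3.05 CPM in wild type and 1.51 to 9.81 in the clones, with clone 2 replicate 1 inside the wild-type range (log2 fold change 1.70, SE 0.34, adjusted p = 3.26e-04 by edgeR).

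Snord17, the longest of the 40 at 238 bases, lies in Snx5, a sorting nexin gene. It was at 23.5, 28.6, 38.9 and 34.7 CPM in wild type, 31.5, 32.5, 31.4 and 31.3 in Btbd7 KO, 57.3, 55.0, 56.9 and 67.9 in clone 1, 44.7, 37.5, 41.6 and 47.0 in clone 2 and 48.4, 41.3, 47.2 and 46.3 in clone 3. Clones 1 and 3 lay above wild type and clone 2 overlapped it in a single library (log2 fold change 0.64, SE 0.10, adjusted p = 1.02e-05 by edgeR). Snord49b, in the noncoding gene 2410006H16Rik, had a log2 fold change of 0.86 (SE 0.29, adjusted p = 0.0206 by edgeR) that rested on which wild-type libraries were kept. It was at 7.61, 2.26, 3.36 and 1.94 CPM in wild type and 4.28 to 13.1 in the clones. Without wild-type replicate 1 the value was 1.48, and without replicate 2, 3 or 4 the call ended (0.68, 0.82 and 0.66, adjusted p = 0.0839, 0.0537 and 0.0925).

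The 1 gene called lower was Snord87, in Snhg6. It was at 6.44, 2.49, 2.54 and 2.29 CPM in wild type and 1.25 to 2.61 in the clones. The call (log2 fold change -0.93, SE 0.29, adjusted p = 0.0131 by edgeR) ended without wild-type replicate 1 (-0.42, adjusted p = 0.275). Snord15a, at 35.4, 32.9, 23.4 and 24.9 CPM in wild type and 15.3 to 37.4 in the clones, overlapped throughout (log2 fold change -0.31, SE 0.17, adjusted p = 0.153 by edgeR). In Btbd7 KO it was lower by the test, at 15.6, 14.9, 21.6 and 25.0 CPM (log2 fold change -0.61, adjusted p = 0.0491 by edgeR). That call ended with only the groups compared (adjusted p = 0.0828), without TMM factors (0.0522), with the replicate block (0.0672), and without any one of Btbd7 KO replicates 1, 2 or 3, wild-type replicates 1 or 2, clone 1 replicates 2 or 3, clone 2 replicates 2, 3 or 4, or clone 3 replicates 1, 3 or 4.

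The clones differed from each other for 6 of the 30 genes (edgeR test with 2 degrees of freedom, adjusted p under 0.05), against 28.5% of all genes tested. They were Snord118, Snord13, Snord83b, Snord17, Snord43 and Snord72, and clone 1 had the highest mean of the clones for each. Without wild-type replicate 1 the count was 11, against 38.6% of all genes. Clone 1 was also the clone whose 4 libraries were all shallow, and the part of depth in these differences was not tested.

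The 10 genes too low for the test had 25 to 89 counts in all. Of these, 5 had fewer than 20 counts outside the Zcchc8 KO libraries, so the count rule admitted them through those libraries. Among the other 5 the mean of the clones was above wild type for 3 and below it for 2. Snord89 had no count in any wild-type library.

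Few hosts rose with the snoRNA genes they hold. Of the 20 hosts of tested genes 1 was higher and 6 were lower in the clones, against 16.2% and 19.9% of all genes, with a median log2 fold change of -0.09. To set each snoRNA gene against its host within a library, the log2 ratio of the 2 counts was compared between groups, for 27 of the 30 genes and for all 1421 genes that lie inside another gene on the same strand. The ratio was higher in the clones for 12 of the 27 and lower for 0 (limma, adjusted p under 0.05), against 16.2% and 1.2% of all such genes. Without Snord73a and Snord92 it was higher for 10 of 25. The median log2 change of the ratio was 1.17 for the 27 and 0.40 for all. In clones 1, 2 and 3 taken singly, limma called 10, 10 and 10 ratios higher (9.22%, 9.15% and 8.73% of all such genes) and 0 lower in each (0.774%, 0.704% and 0.844%). At an unadjusted p under 0.05, 0 ratios were lower in the mean, 0 in clones 1 and 2 and 1 in clone 3. In Btbd7 KO the limma test called 0 of the 27 higher and 0 lower (0.141% and 0.211% of all such genes), with 1 higher and 2 lower at an unadjusted p under 0.05.

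The ratio rose by 5.15 on the log2 scale for Snord11 (SE 0.59, limma adjusted p = 6.64e-06), 4.83 for Snord73a (SE 0.64, adjusted p = 2.7e-06) and 3.68 for Snord92 (SE 0.68). Wild-type libraries with few counts moved these sizes: Snord11 was at 5.98 without replicate 1 and at 4.32 without replicate 4. Snord93 was at 2.71, and at 1.75 without wild-type replicate 1. The values of Snord73a and Snord92 are not free of the count rule, which both met only through the Zcchc8 KO libraries. The ratio rose by 2.31 for Snord83b (SE 0.18, limma adjusted p = 1.61e-10). Snord70 was at 1.89, Snord98 at 1.83, Snord43 at 1.42 and Snord17 at 0.83. The calls of Snord61 (2.46, adjusted p = 0.0369) and Snord49b (0.83, adjusted p = 0.048) ended when any of several single libraries was left out, among them wild-type replicate 3 (1.80, adjusted p = 0.137, and 0.78, adjusted p = 0.0936).

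**Figure D2:**
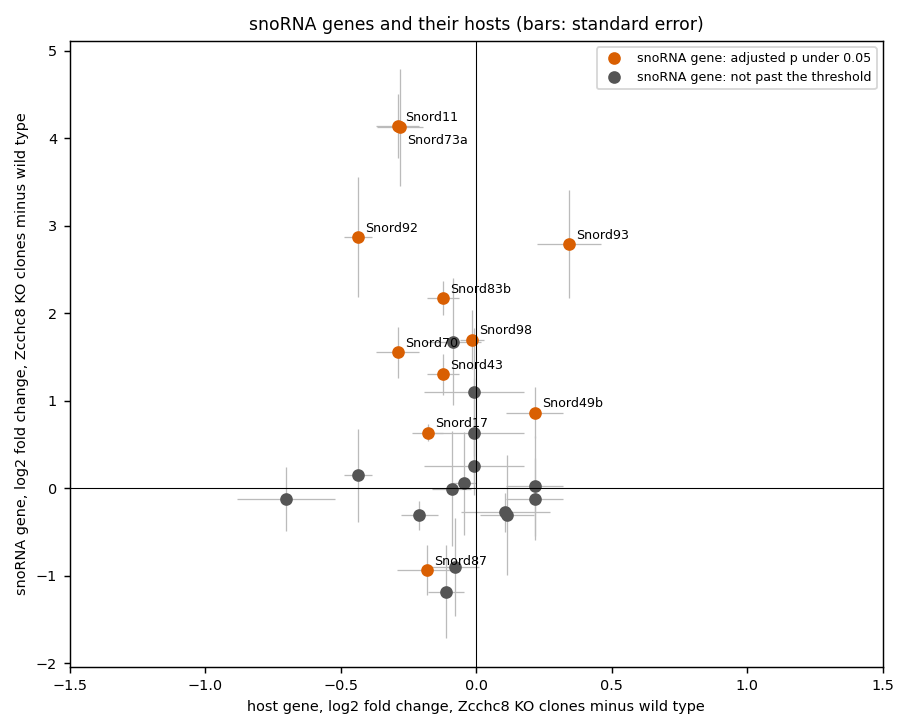
Log2 fold change of each tested snoRNA gene (y axis) against that of its host gene (x axis), mean over the Zcchc8 clones minus wild type; points are snoRNA genes, bars standard errors, and orange marks snoRNA genes past the test; 1 gene is not plotted. The called genes other than Snord87 lie at 0.64 to 4.14 on the y axis while every host lies between -0.70 and 0.34.

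Genes that share a host had different values. In Nop58, Rpl3 and Wdr43 the sizes differed as given above. In 2410006H16Rik, Snord49b was at 0.86, Snord49a at 0.02 (SE 0.57) and Snord65 at -0.12 (SE 0.47). Without wild-type replicate 1 these were 1.48, 0.14 and 1.27, so Snord49b and Snord65 then lay close together. In Rpl13a, Snord32a was at 0.25, Snord35a at 0.63 and Snord34 at 1.10, with no call in the mean of the clones. Without wild-type replicate 1 these were 0.42, 0.25 and 2.16, and Snord34 was called (adjusted p = 0.0392 by edgeR). These differences within a host were not tested.

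The place of a gene in its intron was a feature the rule did not use. The genes compared had still passed the count rule and the filter, which the clone libraries could meet alone. Many intronic box C/D genes lie at a short, favoured distance before the next exon of the host. Among the 27 genes with a ratio, the distance from the 3′ end of the snoRNA to the next host exon had a median of 92 bases. In the 14 genes at 63 to 92 bases, the ratio was called higher for 3 (Snord83b at 71, Snord61 at 70 and Snord49b at 84 bases), with a median log2 change of 0.12. In the 13 genes at 107 to 3954 bases it was called higher for 9, with a median of 1.83, and without Snord73a and Snord92 for 7 of 11, with a median of 1.42. The 7 include genes that were also low in the controls, Snord11 and Snord93 among them, so this contrast is not free of that selection. The 4 at these longer distances without a call were Snord32a (107 bases), Snord7 (114), Snord53 (330) and Snord8 (1719). Snord11 lies 719 bases before the next exon, Snord92 639, Snord93 437, Snord70 316, Snord43 264, Snord73a 198 and Snord98 142. Across the 27 genes Spearman's rho between distance and ratio change was 0.53, and it was -0.19 for the distance to the previous exon, 0.14 for the length of the intron and 0.00 for the summed counts. The summed counts include those of the clone libraries. The points share libraries, and some share a host, so these values are descriptions.

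**Figure D3:**
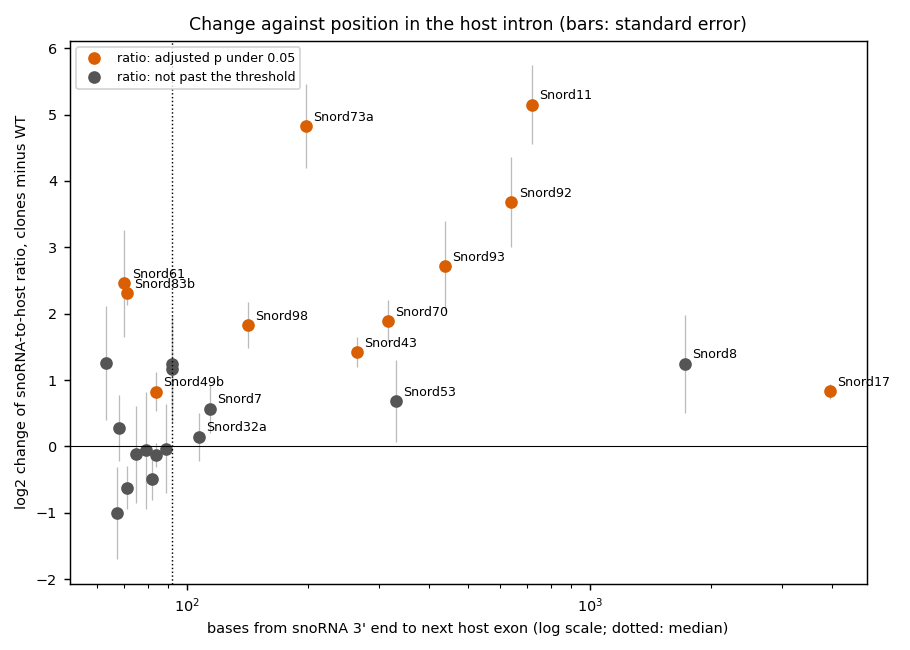
Log2 change of the snoRNA-to-host ratio (y axis, mean over the Zcchc8 clones minus wild type) against the bases between the snoRNA 3′ end and the next host exon (x axis, log scale); 1 gene is not plotted, bars are standard errors, orange marks ratios past the test and the dotted line is the median of 92 bases. Most genes right of the line were called higher, and 3 of the 14 at or left of it.

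Most Snord genes without a count overlap an exon. Of the 55 Snord genes without a count, 37 overlap an annotated exon on their strand, and 17 of the other 18 lie in Snhg14. Of the 40 genes described, 2 overlap such an exon (Snord66 with Eif4g1 and Snord42b with Rpl23a). How the counting treated reads shared by overlapping genes is not given in the sources used here.

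The region upstream of each gene gave a readout that had not chosen the genes. The series counted reads in promoter upstream transcript (PROMPT) regions, 1 per gene, in 19 libraries without wild-type replicate 1. The regions of 12 of the 40 genes had no count in any library, 1 was too low, and 27 were tested. In the mean of the clones 4 of the 27 regions were higher and 6 lower (edgeR quasi-likelihood test), whereas 39.9% of all 17655 regions tested were higher and 3.31% lower. The median log2 fold change was -0.04 for the 27 and 0.45 for all regions. The lower calls depend on the scaling: with TMM factors from the PROMPT counts themselves, which moved the median over all regions to 0.02 and that of the 27 to -0.43, 4 of the 27 were higher and 15 lower, against 30.1% and 21.9% of 16765 regions. In Btbd7 KO edgeR called 0 of the 27 higher and 0 lower (1.35% and 1.68% of all regions), with 0 higher and 1 lower at an unadjusted p under 0.05. The region upstream of an intronic snoRNA gene can lie in its host, and the extent of these regions is not given in the sources used here.

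The 4 higher regions all belonged to genes that also rose. The region upstream of Snord73a averaged 17.5 ± 0.883 CPM over wild type (SD, n = 3), 13.9 ± 1.57 over Btbd7 KO (SD, n = 4) and 59.9 ± 4.06, 48.0 ± 6.42 and 53.0 ± 2.35 (SD, n = 4 each) in clones 1, 2 and 3 (log2 fold change 1.63, SE 0.10, adjusted p = 3.8e-21 by edgeR). The region upstream of Snord11 averaged 8.76 ± 0.394 CPM over wild type (SD, n = 3) against 17.8 ± 2.72 over the clones (SD, n = 12), with no overlap (1.03, SE 0.13, adjusted p = 1.53e-09 by edgeR). The region upstream of Snord118 went from 2.76 ± 0.689 CPM (SD, n = 3) to 5.38 ± 1.37 (SD, n = 12; 0.95, SE 0.23, adjusted p = 5.78e-04 by edgeR). That of Snord43, at 0.431 ± 0.399 CPM (SD, n = 3) in wild type, was at 1.75 ± 0.614 (SD, n = 12; 1.93, SE 0.50, adjusted p = 9.56e-04 by edgeR), and its change was 3.02 without wild-type replicate 4.

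For other genes the upstream region and the snoRNA gene went different ways. The region upstream of Snord83b averaged 40.7 ± 2.69 CPM over wild type (SD, n = 3) against 31.6 ± 3.28 over the clones (SD, n = 12) (log2 fold change -0.35, adjusted p = 0.00103 by edgeR), while the gene rose. The region of Snord92 was at 16.7 ± 1.72 and 12.2 ± 2.15 CPM (-0.45, adjusted p = 0.00308), a call that ended without wild-type replicate 2 (-0.36, adjusted p = 0.054). Regions of Snord53 (-0.55), Snord7 (-0.47), Snord82 (-0.42) and Snord66 (-0.30) were also lower, and the call for Snord53 ended without wild-type replicate 3 (-0.36, adjusted p = 0.205). The region of Snord13 was at 0.14 (SE 0.15), that of Snord85 at -0.11 (SE 0.13) and that of Snord98 at -0.03 (SE 0.09), none past the test.

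**Figure D4:**
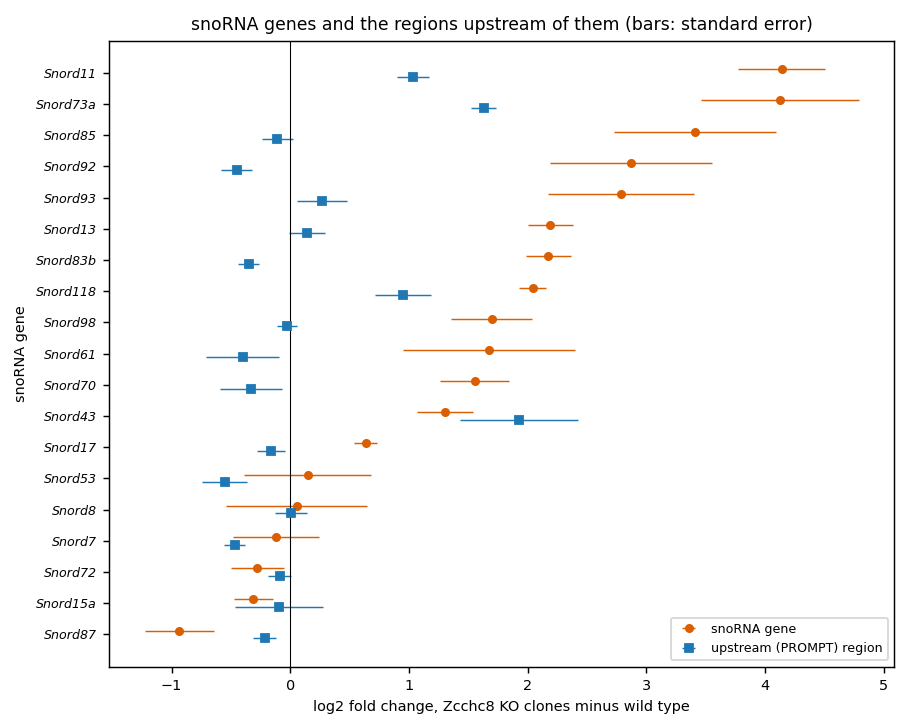
Log2 fold change, mean over the Zcchc8 clones minus wild type, of snoRNA genes (circles) and of the PROMPT regions upstream of them (squares), for genes with both values, ordered by the snoRNA gene; bars are standard errors. Both values are raised for Snord11, Snord73a, Snord118 and Snord43, whereas the regions of Snord92 and Snord83b lie below 0 while the genes lie at 2.87 and 2.17.

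Genes that encode the proteins of box C/D snoRNPs and of snoRNA maturation did not rise with the RNAs. Of 26 such genes tested, 1 was higher and 9 were lower in the clones, against 16.2% and 19.9% of all genes, with a median log2 fold change of -0.15. Of the core proteins, Fbl, the methyltransferase fibrillarin, was at 0.17, Nop56 at -0.08, Nop58 at -0.29 and Snu13 at -0.26, the last pair past the test. Srrt, which encodes the cap-binding partner ARS2, was the gene that rose (0.49). Of 20 genes for NEXT, PAXT and exosome subunits, 0 were higher and 9 lower by edgeR, beside the same 16.2% and 19.9%, with a median of -0.18. At an unadjusted p under 0.05 edgeR had 2 higher, and DESeq2 called 1.

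The box H/ACA snoRNA genes, which guide pseudouridylation and also lie in introns, were set beside the box C/D genes by the same count rule. Of 19 genes named Snora, 16 were tested, and 9 were higher and 0 lower in the clones (16.2% and 19.9% of all genes), with a median log2 fold change of 1.24. By edgeR 0 were lower at an unadjusted p under 0.05, and by DESeq2 0 were called lower. The count rule and the filter chose these genes too, and the clone libraries could meet both alone. Their count is thus not free of that selection. The difference between the 2 classes was not tested.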

How the data were processed

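Total RNA of 20 libraries was made with a stranded total RNA kit, per the labels' protocols, and STAR 2.7.3a and FastQC are named in the submitters' processing notes. The authors deposited raw counts per gene (20 libraries) and per PROMPT region (19, without wild-type replicate 1). The counter, strand setting, genome build, rule for shared reads and extent of a PROMPT region are not given in the sources used here, so a count may include reads of an overlapping transcript.

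Positions came from GENCODE M21 (GRCm38), which matched 55230 of 55471 identifiers without the version. The host is the gene on the same strand that contains the snoRNA gene, and with several, the one with the most counts. Counts were tested with edgeR 4.0.16 (glmQLFit, glmQLFTest; filterByExpr, TMM) in 1 fit over 5 groups. PROMPT counts used library sizes and TMM factors of the gene table. Host ratios, log2((count + 0.5)/(host count + 0.5)), were tested with limma 3.58.1. Adjusted p under 0.05 was called. The scripts were tested on simulated counts.

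The genes and lists were chosen with earlier results of these data known. The text names the 5 genes with the most counts, those without a host, those called in every clone with a mean of at least 10 counts (the 10 largest and 5 lowest changes), the 5 largest and 5 lowest called ratios, and genes at the count rule. Snord92, Snord53, Snord58b, Snord87, Snord61, Snord66, Snord82, Snord89, Snord7, Snord8, Snord72 and the Rpl13a, Rpl23a and 2410006H16Rik genes were named after their values were seen. Alternatives were DESeq2 1.42.0, other filters, pseudocounts and scalings, a replicate block, only the groups compared, a fold limit and leaving out each library. The other deposited tables were not used. Some items are not reported here.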

Additional observations from a re-analysis of the deposited data

Results flagged for a closer look

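The clones differed from each other for 5 of the named genes (edgeR test of equal clones). They did so for 6 of all 30 snoRNA genes tested, against 28.5% of all genes tested. The adjusted p was 2.8e-07 for Snord118, 0.0014 for Snord13, 0.00167 for Snord83b, 0.00441 for Snord17 and 0.0392 for Snord43, and clone 1, whose libraries were the shallow ones, had the highest mean of each.

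A single library lay far from the other 3 of its group in 5 of 75 groups checked, and chance gives such a flag in about 1 of 20 groups. Snord17 was highest in Btbd7 KO replicate 2, at 32.5 CPM against 31.3 to 31.5, and its 4 values spanned less than those of any other group for this gene. Snord11 was highest in clone 1 replicate 3, at 24.6 CPM against 16.4 to 17.7. Snord70 was lowest in clone 3 replicate 2, at 2.51 CPM against 5.05 to 5.52. Snord42b was highest in clone 1 replicate 2, at 0.135 CPM, and in clone 3 replicate 2, at 0.126 CPM. Each of these was 1 count where the rest of the group had 0. Such a group is always flagged, so the chance rate above does not apply to it.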

How the results depend on the processing

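Over 37 results on named genes, 911 of 938 values under the alternatives kept their direction and their side of the threshold, 22 lost the call and 5 gained one; none reversed. The number of genes called lower in the mean of the clones was 2 without a filter, 0 with an absolute log2 fold change over 1 and 0 when a call in each clone was required. In clone 2, with only the groups compared, 8 were higher and 0 lower. In clone 3, 1 was lower with DESeq2 and 1 without a filter. For Btbd7 KO, 2 were higher without a filter and 0 with only the groups compared, and 0 were lower without TMM or with only the groups compared. With TMM factors from the PROMPT counts themselves, 15 regions upstream of these genes were lower.

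Leaving out single libraries gave 13 to 17 genes higher and 0 to 2 lower in the mean of the clones, 0 to 1 lower in clone 1, 0 to 2 lower in clone 2, 0 to 2 lower in clone 3, 1 to 2 higher and 0 to 2 lower in Btbd7 KO, 10 to 13 ratios higher, and 4 to 11 genes that differed between clones. The shares of all genes moved too. Without wild-type replicate 1, where the counts were 17 and 11, 17.5% of all genes were higher and 38.6% differed between clones, against 16.2% and 28.5% with all libraries.

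Same-numbered libraries did not deviate together (r from -0.07 to at most 0.1001 over 40 pairs, 1 of them over 0.1), so the numbers give no pairing. With the replicate block 14 genes were higher and 1 lower in the mean of the clones, 1 was lower in clone 2, 0 were lower in Btbd7 KO, 11 ratios were higher, and 4 upstream regions were higher and 7 lower. For most of these alternatives the shares of all genes are not given here, so such counts only show how far the calls move.

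Depth limits the low genes: Snord73a, Snord85, Snord92 and Snord93 had 0 to 13 counts in control libraries, so their fold changes are imprecise.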

Other observations

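Other genes of snoRNA or scaRNA biotype that lie in introns were set against their hosts in the same way. Of 99 such genes, 9 lay within 92 bases of the next host exon, with 2 ratios called higher and 1 lower and a median log2 change of -0.06. The other 90 lay farther away, with 45 called higher and 2 lower and a median of 1.51. Of all 1421 genes inside another gene, 16.2% of ratios were called higher and 1.2% lower. Spearman's rho between distance and ratio change was 0.16 over the 99. Snora31, 64 bases before the next exon of Tpt1, was among the near genes called higher (2.52), and Snora73b, 78 bases before an exon of Snhg3, was at -0.11. Rnu73b, a second gene inside Rps3a1, the host of Snord73a, had a ratio change of 2.17 (limma adjusted p = 2.54e-06). These genes too had passed the filter, which the clone libraries could meet alone. Genes in 1 host share its counts, and these values are descriptions.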
